A study of Mus musculus with 14 samples.

Results

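Bulge stem cells were compared between aged and young wild-type C57BL/6 mice in resting skin. The comparison rests on 4 of the 14 RNA-seq libraries of the series, 2 from mice of 2 months and 2 from mice of 24 months, chosen by their labels (telogen bulge stem cells at each age). The cells were sorted by flow cytometry from dorsal skin. No transgene, treatment or depilation is labelled for these 4 libraries. The other libraries used here are 4 of telogen epidermis and 4 of activated bulge stem cells, again 2 for each age and of the same strain and genotype. The activated bulge stem cells are those of depilated skin. Nothing in the labels ties the 2 libraries of a group to different mice, so the tests measure only the spread between these libraries, which may be technical. The sex of the mice is not given in the labels.

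The bulge is the part of the hair follicle below the sebaceous gland that holds the follicle's stem cells. In telogen, the resting phase, these cells are mostly out of the cell cycle, held there by BMP signals and factors such as NFATC1, and WNT, FGF and other signals from the hair germ and dermis start a new hair cycle. They anchor to a basement membrane that they help to make, and their secreted proteins serve neighbouring nerves, muscle and melanocyte stem cells.

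Levels below are FPKM (fragments over transcript length in kilobases, relative to the library's size), as deposited by the authors and divided by 1 common constant, so that ratios between libraries are unchanged. Values for 1 gene are given in the order 2-month replicates 1 and 2, then 24-month replicates 1 and 2. Differences are 24 minus 2 months on the log2(FPKM + 1) scale, which understates the change of low genes. A gene was called at an adjusted p under 0.05 (limma with Benjamini-Hochberg adjustment over all genes tested), and "separate" means that both libraries of one age lay above both of the other.

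The labelled cell type was checked against 10 defining markers of the bulge. CD34, a surface glycoprotein that marks these cells, was at 1002, 1218, 883 and 947 FPKM (Cd34), against at most 5.38 FPKM in the epidermis libraries. Krt15, a keratin of the bulge, was at 13022, 14722, 14124 and 12642 FPKM. Lgr5, Lhx2, Sox9 and Tcf7l1 were each higher in every telogen bulge library than in every epidermis library. Itga6, an integrin subunit of all basal keratinocytes, was lower, at 31.4 to 45.1 FPKM against 156 to 225 in epidermis. Krt5, a keratin that basal keratinocytes use, is listed at 0 in all 4 libraries and was not tested. The rule for failed estimates needs a value above 100 FPKM in the other library of the group, so it cannot flag such a gene. The 0 is therefore not read as absence of Krt5. All 4 libraries expressed the Y-linked genes Eif2s3y, Ddx3y, Kdm5d and Uty and had Xist near 0, whereas the activated bulge libraries had Xist at 14.8 to 132 FPKM and these Y-linked genes near 0. Sex and cell population therefore cannot be told apart where telogen and activated bulge are compared, although sex does not differ between the ages within telogen bulge.

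The estimated depth was 36.8 to 46.0 mega-fragments. The 2-month libraries were less alike than the 24-month ones. The correlation across genes (genes are no replicates) was 0.982 within 2 months, 0.996 within 24 months and 0.978 to 0.986 across ages. The SD over genes of the log2 difference between replicates was 0.35 at 2 months and 0.16 at 24 months. Part of the difference between the young libraries went with transcript length (Spearman 0.31 across genes, a description), and the age difference itself had a Spearman correlation of -0.14 with length. Replicate 1 at 2 months was also low in suprabasal keratins. Krt1 was at 259, 670, 701 and 618 FPKM and Krt10 at 774, 2173, 1823 and 1734 FPKM, and the summed level of 10 markers of interfollicular epidermis was 2215, 6264, 5642 and 5102 FPKM. In epidermis Krt1 was at 976 to 1276 FPKM and Krt10 at 1300 to 1724 FPKM, so 3 of the 4 telogen bulge libraries held at least as much Krt10 as every epidermis library. The part of these differences between replicates in the results was not tested. Some medians of gene lists moved when 1 library was left out, and such values are given beside them.

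Of 11577 genes tested, 3 were called (0.0259%), namely Gstt1 and Hba-a2 as higher and Pcolce2 as lower at 24 months. At an adjusted p under 0.1 there were 23 (0.199%), 14 higher and 9 lower. Many more genes were separate by age, 3195 higher (27.6%) and 3157 lower (27.3%) at 24 months, and 1105 higher (9.54%) and 1155 lower (9.98%) had an unadjusted p under 0.05. The shares of separate genes are the background for every count of separate genes in a list below. With 2 libraries against 2, an exact permutation test of a single gene cannot go below 0.33. Differences were mostly small: the median absolute log2 difference was 0.16, and 96 genes differed by more than 1, of which 89 were separate. The plot of all genes shows where the called genes lay among the rest.

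**Figure D1:**
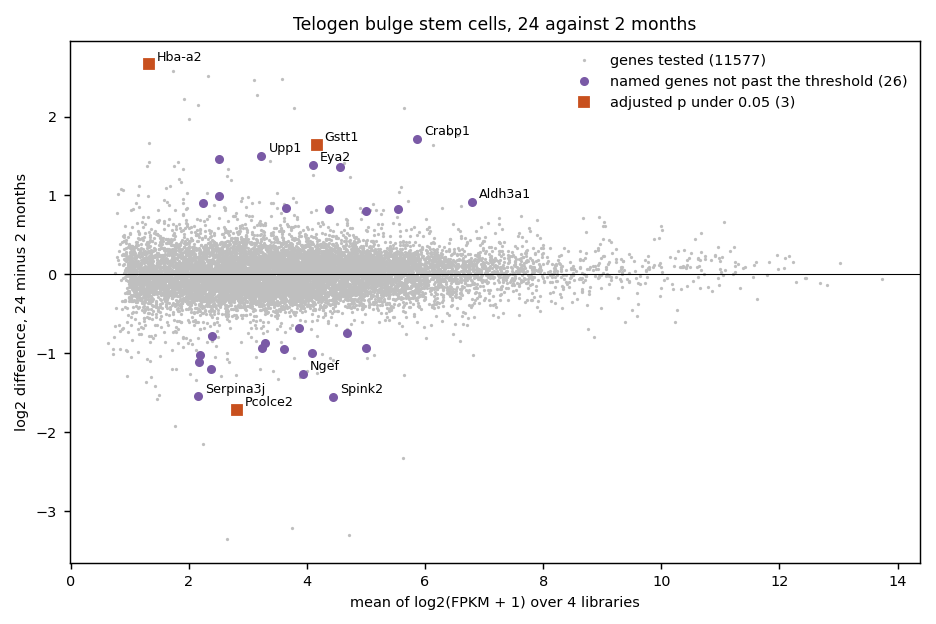
Each point is 1 of 11577 genes, with the mean of log2(FPKM + 1) over the 4 telogen bulge libraries on the x axis and the log2 difference, 24 minus 2 months, on the y axis. Squares mark the 3 genes with an adjusted p under 0.05 (Hba-a2 at 2.66, Gstt1 at 1.64, Pcolce2 at -1.71) and larger round points the other 26 named genes, which did not pass it.

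Gstt1 rose with age. It encodes a theta-class glutathione S-transferase, an enzyme that conjugates glutathione to electrophiles, and lies at chr10:75246558-75261329 on the minus strand (mm9). It was at 8.96 and 9.38 FPKM at 2 months and at 32.9 and 28.7 FPKM at 24 months. Both aged libraries lay more than 3-fold above both young ones, on an estimated 356 to 1355 fragments. The difference was 1.64 (SE 0.10, adjusted p = 0.0356). In epidermis Gstt1 was at 0.75, 0.31, 1.63 and 0.52 FPKM, a difference of 0.40, and the ages overlapped. In activated bulge it was at 2.59, 1.84, 12.9 and 2.77 FPKM, a difference of 1.18. In both populations 24-month replicate 1 stood above the rest.

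Pcolce2 fell with age. It encodes an enhancer of the protease that trims procollagen into fibril-forming collagen, and lies at chr9:95538047-95595970 on the plus strand (mm9). It was at 11.5 and 12.1 FPKM at 2 months and at 3.05 and 2.76 FPKM at 24 months, with no overlap. The difference was -1.71 (SE 0.10, adjusted p = 0.0356). In activated bulge Pcolce2 was at 4.14, 1.84, 0.99 and 0.55 FPKM, a difference of -1.12, and in epidermis it was under 0.2 FPKM in every library.

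Hba-a2, which encodes an alpha-globin chain, was also called, but its value is uncertain. It was listed at 0.0011 and 0.0010 FPKM at 2 months, under the 3 fragments that would give 0.139 and 0.145 FPKM, and at 5.74 and 4.93 FPKM at 24 months (difference 2.66, SE 0.13, adjusted p = 0.0280), at least 37.6-fold higher against a floor of 3 fragments per library. Its near-identical copy Hba-a1 spans almost the same stretch in the annotation (chr11:32183672-32197303 against chr11:32183675-32197310, mm9), so the quantifier could divide reads between them. The sum of both copies was 14.3, 29.6, 38.2 and 35.7 FPKM. On that sum the aged libraries still lay above the young ones, but by much less, and replicate 1 at 2 months was the low library. In epidermis Hba-a2 alone was at 0.0010, 0.0012, 5.62 and 0.0025 FPKM, so a jump of like size lay between the 2 libraries of 24 months. In activated bulge it was at 0.0011, 0.0002, 0.0012 and 0.0007 FPKM. The beta-globin genes Hbb-b1 and Hbb-b2 were under 0.15 FPKM in all 4 telogen bulge libraries.

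Next to these stand genes that were separate and among the smallest p values but did not pass the threshold. Crabp1, a cytoplasmic retinoic acid binding protein, was at 36.6, 26.1, 109 and 99.2 FPKM, a difference of 1.72 (SE 0.17, adjusted p = 0.0843). Upp1, uridine phosphorylase, was at 4.01, 5.18, 14.5 and 15.1 FPKM, a difference of 1.51. Sqrdl, a mitochondrial enzyme that oxidises hydrogen sulphide, was at 2.34, 2.56, 9.07 and 7.98 FPKM. Cbs, which makes cystathionine and also hydrogen sulphide, was at 14.2, 14.9, 27.2 and 26.3 FPKM. Sqrdl and Cbs differed by 1.46 and 0.83, and the rule for naming required both to be separate. They differed by 0.59 and 0.17 in epidermis and by 1.15 and 0.11 in activated bulge. Aldh3a1, an aldehyde dehydrogenase, was at 75.7, 83.0, 154 and 148 FPKM (0.92, adjusted p = 0.0843).

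Several more genes were separate and higher. Eya2, a transcriptional cofactor and phosphatase, was at 11.4, 7.96, 25.8 and 27.6 FPKM, a difference of 1.39. Mmp2, a secreted gelatinase, was at 14.4, 12.9, 31.3 and 42.6 FPKM, a difference of 1.36. Both had an adjusted p of 0.103. Smoc2, a matricellular calcium-binding protein, differed by 0.80, Rab3il1, a Rab exchange factor, by 0.99, Gsdmd, the pore-forming protein of pyroptosis, by 0.91, and Piwil2, an Argonaute-family protein best known from the germ line, by 0.84.

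Of the genes separate and lower, Spink2, a Kazal-type protease inhibitor, was at 34.0, 38.3, 10.5 and 12.9 FPKM, a difference of -1.55 (adjusted p = 0.0714). Serpina3j, a serpin, was at 7.21, 6.02, 1.27 and 1.98 FPKM, a difference of -1.54. Ngef, a guanine nucleotide exchange factor that acts below ephrin receptors, was at 19.9, 25.4, 8.08 and 9.62 FPKM, a difference of -1.26. In none of them did the ages overlap. Galnt14, which starts O-linked glycans, differed by -1.20, Sdc3, a heparan sulphate proteoglycan, by -1.02, Flrt3, an adhesion and FGF-receptor-binding protein, by -0.99, Cwh43 by -0.95, Atp6v0e2, a subunit of the vacuolar proton pump, by -0.94, and the pseudogene Serpinb10-ps by -0.93. Ano1, a calcium-activated chloride channel, differed by -0.87, Epb4.1l3, a membrane skeleton protein, by -0.78, Slc39a8, a zinc and manganese importer, by -0.74, and Zdhhc2, a palmitoyltransferase, by -0.68. Cidea, a lipid droplet protein, was at 5.68, 5.54, 1.70 and 2.51 FPKM, and is described again with sebocyte genes.

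**Figure D2:**
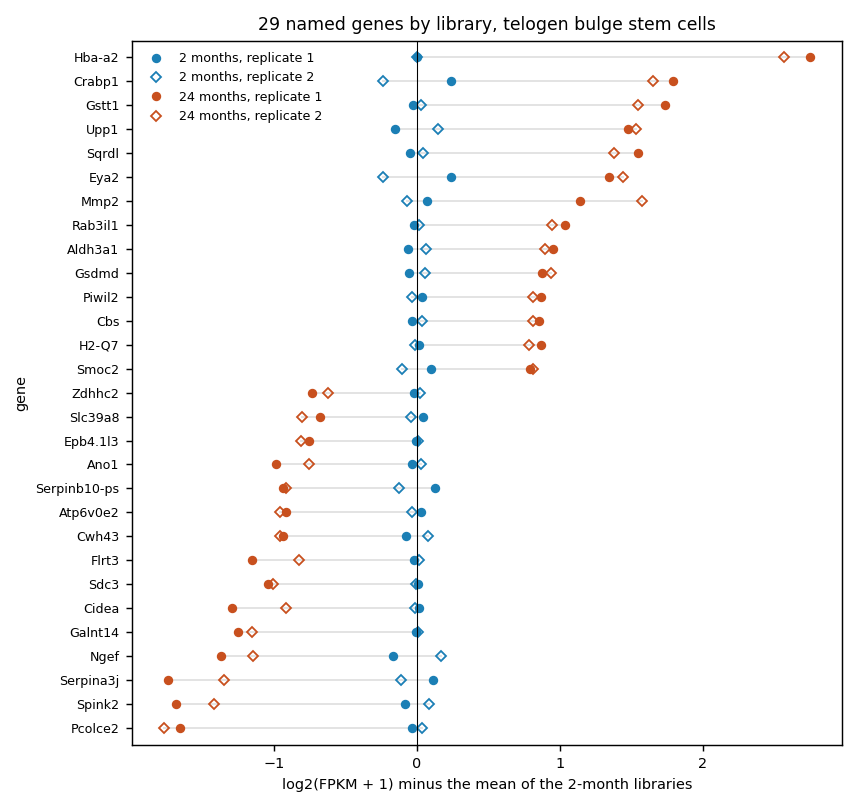
Rows are 29 named genes and the x axis is log2(FPKM + 1) minus the mean of the 2-month libraries; blue symbols are 2-month and orange symbols 24-month libraries, filled for replicate 1 and open for replicate 2. In every row the 24-month symbols lie on 1 side of both 2-month symbols, which the rule for naming required.

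Genes of MHC class I and antigen presentation lay higher at 24 months. Class I molecules display peptides from inside the cell to CD8 T cells: H2 genes encode heavy chains, B2m their shared light chain, Psmb8, Psmb9 and Psmb10 the subunits of the immunoproteasome that cuts the peptides, Tap1 and Tap2 the peptide transporter, and Nlrc5 the transactivator of these genes. Of 18 members tested, all 18 had a positive difference. Of these, 15 were separate and higher and none separate and lower, against 27.6% and 27.3% of all genes. At an unadjusted p under 0.05, 13 were higher (9.54% of all genes were). None was called. The median difference was 0.48, against 0.01 over all genes, and the members ranged from 0.04 to 0.91.

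The upstream sequences of 5 members are shown because they carry a short motif that regulators of these genes are known to bind. They are the 180 bases before the transcription start given by RefSeq on build GRCm38.p6 (the deposited files use mm9), 5′ to 3′ on the gene's strand. Capitals mark matches to AANNGAAA, the core bound by interferon regulatory factors, on either strand (TTTCNNTT on the other), and to its longer form GAANNGAAA, which contains it. H2-K1 (chr17:34000348-34000527, minus strand), H2-D1 (chr17:35262914-35263093, plus), H2-Q7 (chr17:35438975-35439154, plus) and H2-M3 (chr17:37270054-37270233, plus) encode heavy chains, and B2m (chr2:122147507-122147686, plus) the light chain.
H2-K1: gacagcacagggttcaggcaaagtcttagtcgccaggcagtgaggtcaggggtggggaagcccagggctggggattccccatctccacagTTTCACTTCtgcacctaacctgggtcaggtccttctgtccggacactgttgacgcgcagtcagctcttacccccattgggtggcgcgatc
H2-D1: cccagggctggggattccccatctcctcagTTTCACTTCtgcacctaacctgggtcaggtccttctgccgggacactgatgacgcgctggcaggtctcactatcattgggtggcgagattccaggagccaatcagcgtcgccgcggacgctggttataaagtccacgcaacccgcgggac
H2-Q7: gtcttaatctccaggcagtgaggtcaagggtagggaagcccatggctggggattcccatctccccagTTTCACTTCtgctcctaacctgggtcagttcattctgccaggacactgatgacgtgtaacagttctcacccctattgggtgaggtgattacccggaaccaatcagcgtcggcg
H2-M3: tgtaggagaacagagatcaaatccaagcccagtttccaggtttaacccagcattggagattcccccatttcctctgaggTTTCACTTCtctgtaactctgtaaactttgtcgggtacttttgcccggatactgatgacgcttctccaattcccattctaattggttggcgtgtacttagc
B2m: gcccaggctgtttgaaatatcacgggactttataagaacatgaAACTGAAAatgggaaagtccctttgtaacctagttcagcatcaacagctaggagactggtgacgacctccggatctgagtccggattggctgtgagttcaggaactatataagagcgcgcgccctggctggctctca
In all 4 heavy-chain sequences the match has the same letters, TTTCACTTC, and in B2m it is AACTGAAA on the gene's own strand. Of 17 list members with a RefSeq entry, 6 held the longer core in the 250 bases before the start, against 6.34% of 27025 genes. All 6 are heavy-chain genes (H2-K1, H2-D1, H2-Q4, H2-Q6, H2-Q7 and H2-M3), a family of like sequences, so they are not independent cases. The shorter core was found in 9 of the 17 (21.6% of all genes), which were B2m and otherwise heavy chains. A match is a description of the letters and does not show binding.

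Among the heavy chains, H2-K1 was at 340, 426, 633 and 630 FPKM, a difference of 0.73 (SE 0.12, adjusted p = 0.139). H2-D1 was at 311, 398, 509 and 512 FPKM, a difference of 0.54. H2-Q7 was at 34.4, 33.8, 63.1 and 59.4 FPKM, a difference of 0.82 (SE 0.08, adjusted p = 0.0843). In each of them both aged libraries were above both young ones. H2-M3, a nonclassical heavy chain that presents formylated peptides, was at 4.66, 5.67, 10.8 and 10.3 FPKM, a difference of 0.91. Class I heavy chains resemble each other, so reads could be divided among them and the value of a single one is uncertain.

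The partners of the heavy chains lay the same way. B2m was at 795, 901, 1123 and 1221 FPKM, a difference of 0.47. Psmb9 was at 22.3, 26.2, 44.5 and 42.1 FPKM and Psmb8 at 20.1, 24.6, 39.6 and 39.1 FPKM, differences of 0.82 and 0.80. Tap1 was at 32.6, 43.6, 50.6 and 48.1 FPKM, and Nlrc5 at 2.32, 4.03, 4.86 and 4.59 FPKM. In all of these, replicate 1 at 2 months was the lowest library, although the other young library also lay below both aged ones. The list's median was 0.30 without that replicate and 0.65 without replicate 2.

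In epidermis the list's median difference was 0.34, and 1 of the 18 genes was separate and higher, where 4.89% of all genes were. In activated bulge the median was 0.48 and 8 of 18 were separate and higher, against 7.36% of all genes. None of the 18 was separate and lower in either. Same-numbered libraries deviated alike in epidermis and activated bulge (correlations of 0.54 and 0.79 across genes). Separation ignores such pairs, so it can miss an age difference there. The plot of class I genes sets the 3 populations side by side. For MHC class II genes and other markers of Langerhans and dendritic cells, the summed level of 10 such markers was 218, 219, 244 and 247 FPKM. Mfge8 gave 83.4, 93.9, 101 and 109 FPKM of that sum, and was at 2.08 to 6.00 FPKM in epidermis. No member had an unadjusted p under 0.05. All 7 tested members had a positive difference, and 1 was separate and higher, against 27.6% of all genes. Their median of 0.20 was -0.06 without 24-month replicate 1 and 0.43 without 24-month replicate 2. Ptprc, the pan-leukocyte marker CD45, was at 0.07 to 0.12 FPKM. Markers of T cells summed to 11.7, 15.7, 16.0 and 14.7 FPKM over 10 genes, 7 of them under 1 FPKM.

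**Figure D3:**
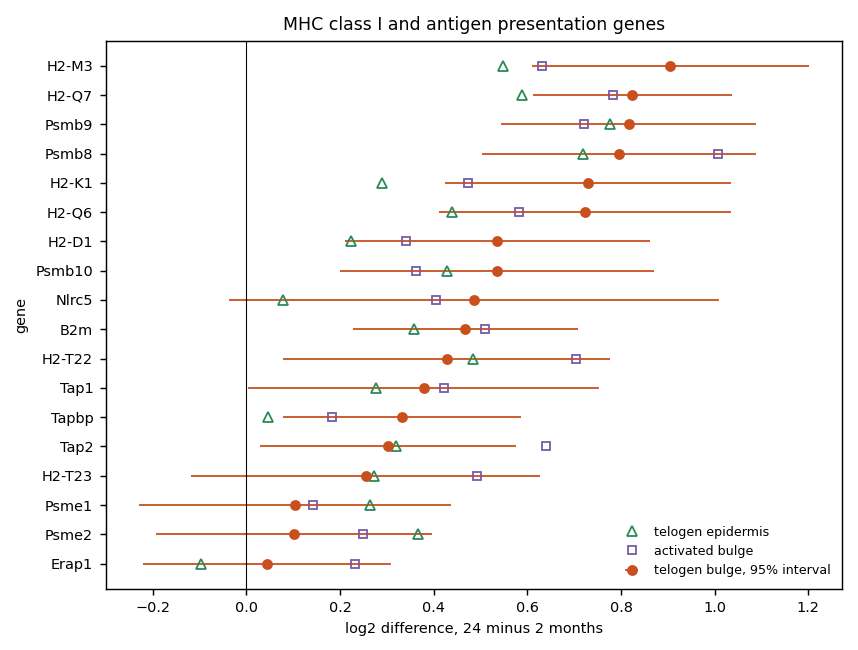
Rows are the 18 tested genes of MHC class I and antigen presentation and the x axis is the log2 difference, 24 minus 2 months. Filled circles are telogen bulge with the 95% interval of the 4-library limma fit, triangles telogen epidermis and squares activated bulge; every circle lies above 0, from 0.04 (Erap1) to 0.91 (H2-M3).

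Interferon-response genes outside antigen presentation lay on both sides. Of 18 tested, 4 were separate and higher and 2 separate and lower, against 27.6% and 27.3% of all genes. The median of 0.03 was -0.03 without 2-month replicate 1. Irf1, an interferon-induced transcription factor, was at 8.98, 10.7, 14.3 and 16.6 FPKM (0.60), and Usp18, which removes ISG15, at 19.3, 22.5, 28.0 and 28.7 FPKM (0.42). Ifih1, a cytoplasmic RNA sensor, was on the other side, at 3.80, 3.51, 2.71 and 2.80 FPKM (-0.31). Of 32 JAK-STAT genes tested, 8 were separate and higher and 6 separate and lower, against the same shares. Il4ra (0.49), Stat5a (0.40) and its feedback inhibitor Socs1 (0.38) lay above and Il13ra1 (-0.45) below.

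Of 16 chemokines and cytokines tested, 9 were separate and higher and 1 separate and lower, against 27.6% and 27.3% of all genes. The median was 0.25. Cxcl12, which draws CXCR4-bearing cells, was at 103, 96.8, 158 and 145 FPKM, a difference of 0.60 (SE 0.09, adjusted p = 0.134). Cxcl14 was one of the most abundant secreted transcripts, at 2185, 2061, 2519 and 2915 FPKM (0.35), and Ccl27a, a skin T-cell chemokine with near-identical copies in the genome, was at 398, 486, 596 and 602 FPKM (0.44). Cxcl1, a neutrophil chemokine, was at 2.12, 2.37, 1.35 and 1.23 FPKM (-0.50). The complement protease gene C2 was at 3.21, 3.82, 7.29 and 6.96 FPKM (0.85), and the complement inhibitor Serping1 at 5.56, 5.83, 7.48 and 8.82 FPKM (0.45). Of 7 complement genes tested, 3 had a positive and 4 a negative difference. In each direction 2 were separate, against the same shares. The complement median was -0.09, but 0.27 without 2-month replicate 2. Of the Skint and related ligands of gamma-delta T cells, Skint2 was higher (0.94) and Skint4 (-0.47) and H60c (-0.45) lower. In that list of 12, 1 was separate and higher and 2 separate and lower, against the same shares.

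Of 20 basement membrane and hemidesmosome genes tested, 10 were separate and lower, against 27.3% of all genes, and 2 separate and higher, against 27.6%. The median was -0.15, 7 were lower at an unadjusted p under 0.05 (9.98% of all genes), and none was called. Lamb1, a laminin chain, was at 3.09, 2.37, 0.685 and 0.779 FPKM, a difference of -1.10 (SE 0.15, adjusted p = 0.117). Npnt, nephronectin, the integrin ligand by which the bulge anchors the arrector pili muscle, was at 58.6, 35.3, 20.2 and 22.5 FPKM, a difference of -1.06. Col4a1, a type IV collagen chain, was at 12.3, 14.6, 8.10 and 7.68 FPKM (-0.69), and Lama3, the alpha chain of laminin-332, at 27.4, 27.8, 20.0 and 18.9 FPKM (-0.49). In each of these 4 genes the ages did not overlap. Col17a1, the hemidesmosomal collagen XVII, did overlap, at 1051, 1096, 994 and 1060 FPKM, a difference of -0.06 (95% interval -0.26 to 0.13).

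Other matrix genes of the bulge were mixed. Of 18 tested, 9 were separate and lower and 4 separate and higher (27.3% and 27.6% of all genes). The median was -0.13, but -0.26 without 2-month replicate 1 and -0.08 without 24-month replicate 1. Tnc, tenascin-C, was at 24.9, 19.6, 6.69 and 10.5 FPKM, a difference of -1.29 (SE 0.22, adjusted p = 0.139), and Sparc, a collagen-binding glycoprotein, at 495, 614, 308 and 379 FPKM (-0.69). Fbln1, fibulin-1, was at 92.6, 86.4, 119 and 120 FPKM (0.41) and Efemp1, fibulin-3, at 5.63, 5.26, 7.69 and 7.42 FPKM (0.41), so the fibulins lay opposite to tenascin-C and Sparc. Among secreted proteases and inhibitors, Mmp2 and Timp3 (0.47) were higher and Adamts1 (-0.86) and Plat, tissue plasminogen activator (-0.52), lower in both aged libraries.

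**Figure D4:**
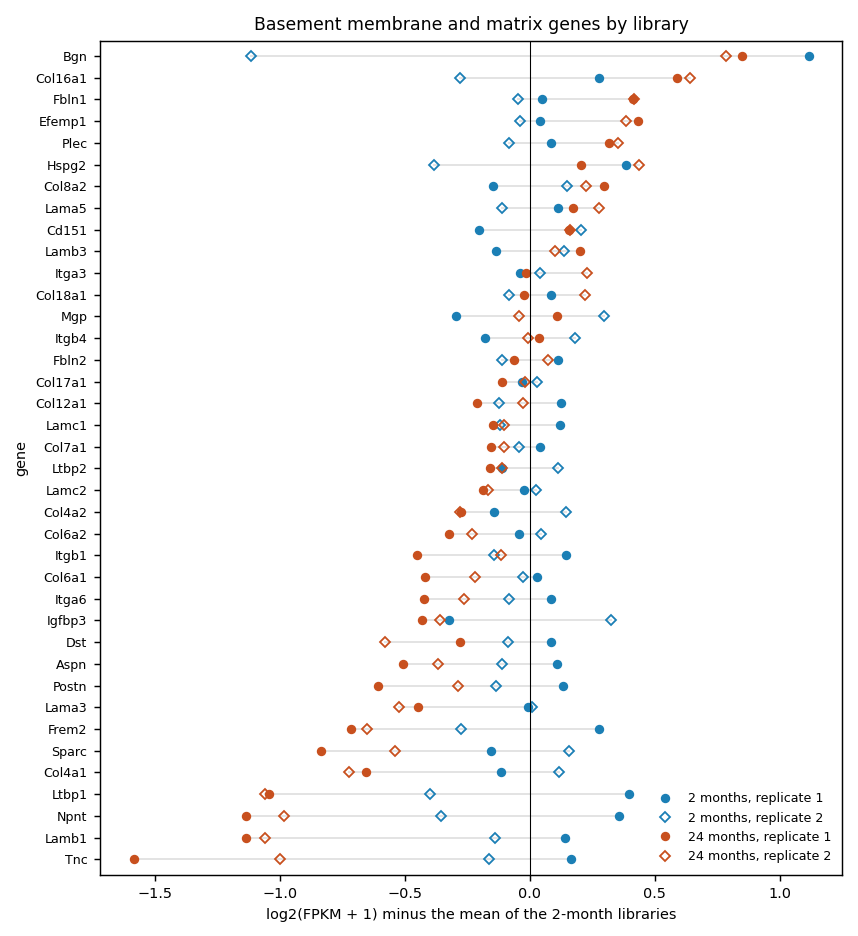
Rows are the 38 tested genes of the basement membrane and matrix lists and the x axis is log2(FPKM + 1) minus the mean of the 2-month libraries; blue symbols are 2-month and orange symbols 24-month libraries, filled for replicate 1 and open for replicate 2. Tnc, Lamb1, Npnt and Ltbp1 lie farthest to the left at 24 months, and Fbln1 and Efemp1 lie on the right.

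Markers of bulge identity lay on both sides. Of 23 surface and niche markers, 11 were separate and lower and 4 separate and higher, against 27.3% and 27.6% of all genes. The median was -0.27. Cd34 differed by -0.27 (95% interval -0.56 to 0.01) and Lgr5, an R-spondin receptor, at 63.0, 56.0, 45.3 and 47.5 FPKM, by -0.35. Fst, follistatin, which binds activins and BMPs, was at 124, 106, 63.9 and 71.7 FPKM (-0.75), and Itgb6, an integrin that activates latent TGF-beta, at 17.8, 13.6, 8.99 and 9.74 FPKM (-0.68). Vdr, the vitamin D receptor needed for hair cycling, was on the higher side, at 135, 107, 173 and 173 FPKM (0.53). The list's median was -0.03 without 2-month replicate 2, a value near 0, and -0.16 without 24-month replicate 2.

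Bulge transcription factors had a median of 0.13 over 21 genes. Of these, 6 were separate and higher, near the 27.6% of all genes, and 4 separate and lower, where 27.3% of all genes were. Tbx1 was at 140, 123, 173 and 178 FPKM (0.42), Barx2 at 146, 133, 186 and 186 FPKM (0.41), Gata3 at 22.9, 24.5, 29.96 and 31.9 FPKM (0.37) and Tcf7l1, a repressor of WNT targets, at 10.3, 7.14, 14.3 and 14.5 FPKM (0.68). Nfatc1, which keeps bulge cells quiescent, was at 53.6, 48.8, 64.5 and 62.1 FPKM (0.30). Sox9 (0.13, 95% interval -0.17 to 0.43) and Lhx2 (0.23, 95% interval -0.21 to 0.68) overlapped between the ages, as did Krt15 (-0.05, 95% interval -0.29 to 0.19). Of the keratins, Krt24, a bulge keratin, was at 501, 574, 650 and 696 FPKM (0.33), Krt17 at 1310, 1404, 1996 and 1894 FPKM (0.52, SE 0.08, adjusted p = 0.135) and the simple keratin Krt8 at 2.59, 2.32, 4.53 and 4.06 FPKM (0.61). Of 13 keratins tested, 8 had a positive and 5 a negative difference. Among them 3 were separate and higher and 0 separate and lower, against the same shares of all genes. The keratin median of 0.07 was -0.12 without 2-month replicate 1 and 0.36 without replicate 2. The transcription factor list's median turned to -0.06 without 2-month replicate 2 and was 0.04 without 24-month replicate 1.

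WNT pathway genes were separate and higher in 15 of 33, against 27.6% of all genes, and separate and lower in 4. At an unadjusted p under 0.05, 5 of the 33 were higher (9.54% of all genes were). The median of 0.20 was 0.10 without 2-month replicate 2. The secreted inhibitor Sfrp2 was at 0.67, 0.18, 3.25 and 3.70 FPKM, a difference of 1.67 (SE 0.20, adjusted p = 0.103). The receptor Fzd2 was at 113, 106, 156 and 148 FPKM (0.47). Nkd1, a feedback inhibitor and target of the pathway, lay lower, at 3.61, 5.37, 2.03 and 2.06 FPKM (-0.83). In epidermis the list's median was -0.07 and in activated bulge 0.02.

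Other signalling lists had smaller medians. Of 22 BMP genes, 8 were separate and lower, against 27.3% of all genes, and 2 separate and higher (median -0.12). Besides Fst, these included the BMP and WNT antagonist Sostdc1 at 208, 169, 139 and 127 FPKM (-0.49), the ligand Bmp7 at 9.73, 11.4, 8.15 and 7.64 FPKM (-0.38) and the signal transducer Smad9 (-0.41). The list's median was -0.015 without 2-month replicate 1 and -0.27 without replicate 2. Of 15 FGF genes, 7 were separate and lower, against the same 27.3%, and 3 separate and higher. Their median of -0.10 was 0.0026 without 2-month replicate 1, -0.20 without 2-month replicate 2 and -0.05 without 24-month replicate 2. Fgf18, a ligand made by the inner bulge that holds the follicle in telogen, was at 19.1, 28.6, 9.30 and 9.54 FPKM, a difference of -1.23 (SE 0.19, adjusted p = 0.138). The receptor Fgfr2 (-0.44) and Dusp6, a phosphatase induced by FGF signalling, at 26.2, 22.7, 16.0 and 18.3 FPKM (-0.49), lay the same way, and Fgf11 (0.48), an intracellular FGF homologue, the other. Other genes of the inner bulge and companion layer summed to 956, 1804, 1093 and 1193 FPKM with Fgf18, so 1 young library stood above the rest; the part of inner bulge cells in the Fgf18 difference was not tested.

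In the TGF-beta list the latent TGF-beta binding proteins Ltbp1 (25.03, 14.0, 8.56 and 8.47 FPKM, -1.05) and Ltbp4 (95.2, 77.7, 112 and 127 FPKM, 0.47) lay on opposite sides. Of 16 Notch genes, 9 were separate and higher (27.6% of all genes were) and 1 separate and lower. Their median was 0.11, but 0.19 without 2-month replicate 2 and 0.06 without 24-month replicate 2. Jag2, a ligand, was at 75.8, 74.4, 94.1 and 90.9 FPKM (0.30), Notch1 differed by 0.28 and the target Hes1 by 0.27, and the target Hey1 was the separate lower gene (-0.43). Of 11 Hedgehog genes, 4 were separate and higher and 2 separate and lower, the latter being the ligand-binding proteins Hhip (1.18, 1.03, 0.15 and 0.16 FPKM, -0.87) and Cdon (-0.41). Of 17 genes of steroid, retinoid and vitamin D signalling, 12 were separate and higher and 2 separate and lower (median 0.18), where 27.6% and 27.3% of all genes were. In that list Crabp1 was higher, and Cyp26b1, which degrades retinoic acid, at 16.3, 16.7, 11.7 and 12.8 FPKM (-0.40), and the glucocorticoid receptor Nr3c1 (-0.48) were lower. Igfbp2, a binding protein of insulin-like growth factors, differed by -0.83, the calcineurin regulator Rcan1 by 0.46, and the receptor kinase Axl, a target of YAP, by 0.64. Their lists did not lean the same way as these members. Of 15 YAP and TEAD genes, 5 differences were positive and 10 negative (median -0.02), with 4 separate and higher and 2 separate and lower. Of 16 IGF and insulin genes, 8 were positive and 8 negative, and of 15 calcineurin genes 7 were positive and 8 negative. The guidance genes Efnb1 (0.54) and Plxna2 (-0.69) lay on opposite sides, as members of a list of 24 with 10 separate and higher and 4 separate and lower. The shares of all genes, 27.6% separate and higher and 27.3% separate and lower, are the background for each such count here.

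Of 34 cell cycle genes tested, 15 were separate and lower (27.3% of all genes were) and none separate and higher. Only 3 were lower at an unadjusted p under 0.05, no larger a share than the 9.98% of all genes. Their summed level was 409, 335, 301 and 308 FPKM, highest in 2-month replicate 1. The median was -0.26, but 0.00 without that replicate and -0.51 without replicate 2, so the young libraries did not give 1 value. Ccnd1, cyclin D1, did not depend on it, at 49.5, 50.1, 33.5 and 32.9 FPKM, a difference of -0.57 (SE 0.08, adjusted p = 0.122). The mitotic kinesin gene Kif20a was at 3.83, 2.49, 1.82 and 1.70 FPKM, and Uhrf1 and Rrm2, which serve DNA replication, differed by -0.44 and -0.30. Cdkn1c, an inhibitor of cyclin-dependent kinases (p57), was at 6.49, 6.83, 16.0 and 11.2 FPKM (0.91). In a list of 15 kinase inhibitors and senescence genes, 4 were separate in each direction, near the shares of all genes. The median was 0.01, or -0.10 without 2-month replicate 2.

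Of 27 p53 target and damage response genes, 12 were separate and lower and 6 separate and higher, against 27.3% and 27.6% of all genes. The median of -0.11 was -0.06 without 2-month replicate 2 and -0.07 without 24-month replicate 1. Trp53inp1 was at 20.9, 32.2, 12.6 and 12.3 FPKM (-1.005), Sesn1, a stress sensor that restrains mTORC1, at 48.7, 55.9, 36.3 and 35.1 FPKM (-0.54), the survival gene Bcl2 at 4.69, 4.004, 2.43 and 2.62 FPKM (-0.60) and Ccng1 at 30.5, 32.3, 22.998 and 24.6 FPKM (-0.38), none of them overlapping between ages. Heat shock genes were mixed, with 11 of 25 separate and lower and 6 separate and higher, against the same shares of all genes. Hsp90aa1 and Hspa8, cytosolic chaperones, differed by -0.61 and -0.37.

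Immediate early genes, which respond within minutes to stimulation and to tissue handling, had a median of 0.29. Of 27 tested, 9 were separate and higher and 1 separate and lower, against 27.6% and 27.3% of all genes. Ier2 was at 110, 101, 153 and 179 FPKM (0.65), Junb at 182, 168, 220 and 316 FPKM (0.59) and Klf2 at 7.49, 6.71, 9.18 and 11.9 FPKM (0.50), and Klf10 was lower (-0.45). The aged libraries differed here: the list's median was 0.64 without 24-month replicate 1, -0.01 without 24-month replicate 2 and 0.17 without 2-month replicate 2. Of 18 clock genes, Arntl, encoding BMAL1, was at 14.7, 13.2, 21.0 and 19.6 FPKM (0.51), whereas Dbp, at 102, 69.9, 59.6 and 38.4 FPKM (-0.81), and Nr1d2 (-0.63), whose genes BMAL1 activates, were lower. The hour of collection is not in the labels, so age and hour cannot be told apart for these genes.

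Among metabolic lists, glycolysis and lactate genes were separate and higher in 13 of 23 and separate and lower in 2, with a median of 0.22. Over all genes the shares were 27.6% and 27.3%. The glucose transporter Slc2a1 was at 48.4, 59.1, 81.1 and 82.4 FPKM (0.60, SE 0.12, adjusted p = 0.156). The enzymes Aldoc, at 23.3, 25.7, 33.2 and 33.5 FPKM (0.43), and Eno1, at 57.7, 59.0, 79.2 and 70.7 FPKM (0.35), and the lactate exporter Slc16a3, at 0.86, 1.76, 3.01 and 3.56 FPKM (0.92), lay the same way. The list's median was 0.18 and 0.25 without the first and the second young library. Oxidative phosphorylation genes had 11 of 69 separate and higher and 14 separate and lower, against the same shares. Their median of -0.02 ran from -0.06 to 0.03 with 1 library left out. Ribosomal protein genes were separate and higher in 44 of 64 and separate and lower in 2, again against these shares. The median difference was only 0.10, and 0.02 with equal library totals. Their transcripts are short (median 730 nt, against 2727 nt over all genes), and with the length trend removed the median was 0.06. Rps19 (0.30) and Rps28 (0.25) had the smallest p values of the list.

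Of 27 antioxidant genes, 9 were separate in each direction, a share near that of all genes. Gstm1, a mu-class glutathione S-transferase, was at 73.5, 71.7, 94.2 and 105 FPKM (0.45), whereas Nqo1, a quinone reductase, at 41.0, 45.1, 32.2 and 33.0 FPKM (-0.39), and the metallothionein Mt1, at 812, 1055, 601 and 681 FPKM (-0.53), were lower. Of 25 fatty acid genes, 8 were separate and higher and 9 separate and lower, again near the shares of all genes. Srebf1, the regulator of lipid synthesis, was at 30.1, 27.0, 43.0 and 46.7 FPKM (0.64). Of the polycomb and DNA methylation list, Cbx7 was at 15.8, 18.3, 25.5 and 24.96 FPKM (0.55).

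Markers of other cell types varied with age in some cases. Of 6 sebocyte markers tested, 4 were separate and lower and 1 separate and higher, against 27.3% and 27.6% of all genes. A positive difference was found in 2, and the median was -0.80. That median was 0.019 over members with at least 5 FPKM in 2 libraries, and 4 of the 10 markers were under 1 FPKM. The wax synthase Awat1 was at 3.68, 3.87, 0.36 and 1.01 FPKM (-1.53), its relative Awat2 differed by -0.50, the elongase Elovl3 was at 3.30, 5.27, 0.63 and 2.14 FPKM (-1.20), and the wax-precursor enzyme Far2 of the fatty acid list was at 6.07, 5.85, 1.17 and 2.48 FPKM (-1.34). The summed level of all 10 sebocyte markers was 159, 151, 146 and 168 FPKM. In bulk samples fewer cells of a type and less RNA per cell cannot be told apart, and the part of sebocytes in the values of Cidea and the other lipid genes was not tested.

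Melanocyte genes were high in 1 young library. Dct, a melanin enzyme, was at 19.4, 4.76, 4.01 and 3.01 FPKM and Pmel, a melanosome protein, at 7.87, 1.79, 1.14 and 1.19 FPKM, and the sum of 10 markers was 55.6, 24.4, 18.0 and 16.9 FPKM. Mitf, the melanocyte regulator, was at 17.1, 15.6, 12.1 and 11.7 FPKM (-0.42). The list's median was -1.20, -0.36 without 2-month replicate 1 and -2.03 without replicate 2. The cornified envelope list was set by the same library, with a median of 0.51 over 20 genes that became -0.23 without 2-month replicate 1 and 1.26 without replicate 2.

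The 4 tested Y-linked genes were each lower in both aged libraries. Uty was at 5.26, 4.92, 3.08 and 3.49 FPKM (-0.51), Kdm5d at 5.36, 4.95, 3.56 and 3.49 FPKM (-0.44), Eif2s3y at 28.1, 30.1, 22.8 and 23.1 FPKM (-0.33) and Ddx3y at 10.7, 9.23, 7.22 and 8.67 FPKM (-0.29). None was called, with adjusted p values of 0.172, 0.169, 0.183 and 0.283 in the order Kdm5d, Uty, Eif2s3y and Ddx3y. Their summed level with the other sex-linked markers was 49.5, 49.2, 36.7 and 38.7 FPKM, with the young libraries close to each other. In epidermis the list's median was 0.24, on the opposite side, but replicates of the same age differed widely there. Eif2s3y was at 16.8, 39.4, 20.1 and 45.4 FPKM and Ddx3y at 5.63, 18.2, 9.96 and 21.6 FPKM in epidermis, with the ages overlapping. Kdm5d differed by -0.04 in epidermis.

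**Figure D5:**
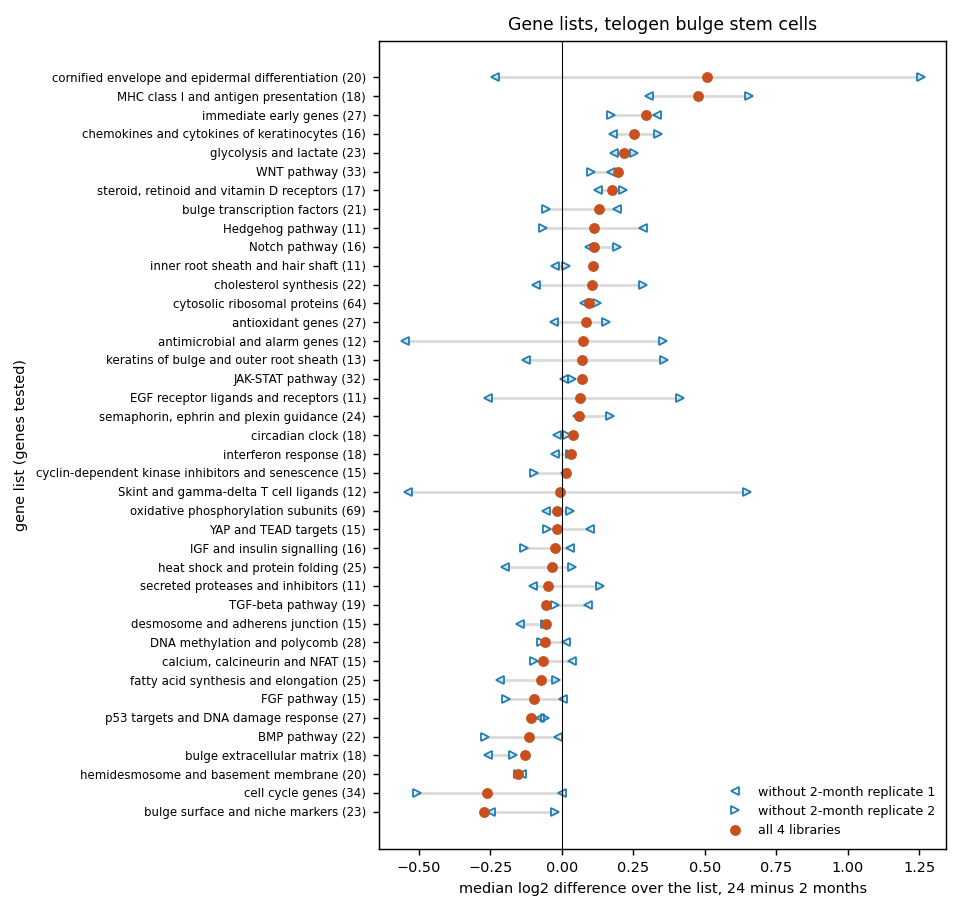
Rows are the 40 gene lists with at least 10 genes tested, other than cell type markers, and the x axis is the median log2 difference, 24 minus 2 months. Circles use all 4 libraries and triangles leave out 1 of the 2-month libraries; MHC class I stays above 0.30 either way, whereas the cornified envelope list runs from -0.23 to 1.26.

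Whether the age difference was particular to telogen bulge was tested with the interaction of age and population over 12 libraries. Of 12384 genes, none was called by limma against epidermis (0%) and none against activated bulge (0%), where 83 and 97 had an unadjusted p below 0.05. Such an interaction had a median standard error of 0.46, so only large differences could have passed. Within each population, 54.2% of these genes were separate by age in telogen bulge, 9.17% in epidermis and 16.9% in activated bulge. Replicates were closest in telogen bulge, and the shares were not tested against each other. Deviations of same-numbered libraries correlated in epidermis (0.54) and activated bulge (0.79), which separation ignores, so the shares are not on equal terms.

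The smallest p values of the interaction with epidermis belonged to 5 genes, all with an adjusted p of 1. Emid1, a secreted protein with a collagen-like part, was at 3.27, 2.78, 0.63 and 0.63 FPKM in telogen bulge and under 0.1 FPKM in epidermis. Pcolce2 differed by -1.74 (SE 0.39) between the age effects. Casp1, the inflammatory caspase, was at 10.9, 9.09, 14.3 and 12.6 FPKM in telogen bulge and at 5.27, 4.12, 17.7 and 31.0 FPKM in epidermis, so its age difference was 0.39 against 2.11. The others were Atp6v1g3, a proton pump subunit higher in aged epidermis, and the unnamed gene Gm6644. Against activated bulge, Emid1 differed by -1.15 (SE 0.26) between the age effects, since it was at 2.06 to 2.78 FPKM in all activated libraries. Next to it stood Gm6644, Pcp4, Pvr and Mtmr7, of which Pcp4, Pvr and Mtmr7 had age differences of -1.15, -1.18 and -1.69 in activated bulge and of 0.02, 0.09 and -0.28 in telogen bulge. Fibroblast genes stood out in replicate 1 of activated bulge at both ages. Col3a1, a fibrillar collagen chain, was at 103 and 0.02 FPKM in the young and at 5.25 and 0.02 FPKM in the aged activated libraries, against at most 0.07 in telogen bulge. Dcn, decorin, was likewise at 105 and 12.5 FPKM in these libraries and under 0.3 FPKM in replicate 2 of each age. The part of those cells in the comparison with activated bulge was not tested.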

How the data were processed

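The authors used TopHat, Cufflinks and build mm9, per the submitters' processing notes (no versions stated). The authors deposited 1 annotated transcript table per library, with FPKM for 28018 transcripts, a value that is not a count. The deposited FPKM lie far above the usual scale, so all libraries were divided by 1 constant, 17850.8. The deposited coverage and confidence bounds gave an estimate of depth. FPKM were summed per gene symbol (22033 genes). Genes entered with at least 1 FPKM in at least 2 of 4 libraries and a transcript of at least 300 nt. Failed estimates, listed at 0 in 1 library and above 100 FPKM in the other of its group, were left out (35 genes, all of them micro or small nucleolar RNAs). The remaining 11577 genes were put on the log2(FPKM + 1) scale (pseudocount 1) and tested by limma 3.58.1 under R 4.3.3 (eBayes with trend, two-sided, Benjamini-Hochberg). Interactions used 12 libraries in 6 groups.

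The comparison, the 59 gene lists (1175 genes, 889 tested) and the tests were chosen with earlier results of these data known. The text names up to 15 genes in each direction by size among called genes, filled by the smallest p among separate genes with a mean of at least 5 FPKM, the 4 smallest p values of each list, 10 bulge markers and 5 genes of each interaction; a gene that this rule names is not reported here. Krt10, H2-K1, H2-D1, B2m, Tap1, Nlrc5, Erap1, Ptprc, Krt5, Col3a1, Dcn, Xist, Hbb-b1 and Hbb-b2 were named after their values were seen. The fit was tested on simulated data. Deviations of same-numbered libraries correlated at -0.14 in telogen bulge, where the numbers do not pair the libraries, at 0.54 in epidermis and at 0.79 in activated bulge. Promoter sequences and starts are those of RefSeq on GRCm38.p6, matched by symbol, 1 start per gene. Alternatives covered scaling, filter, pseudocount, main transcript, trend, a replicate block, the libraries fitted and each library left out. The 2 wounded epidermis libraries were not used here.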

Additional observations from a re-analysis of the deposited data

How the results depend on the processing

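The 3 calls (Hba-a2, Gstt1, Pcolce2) were all still called, in a total of 3, with relative log expression scaling and with pseudocounts of 0.1 and 5, and in a total of 4 without the trend. A filter of at least 5 FPKM in 2 libraries gave 2 calls, Gstt1 and Pcolce2, and left Hba-a2 untested. Equal library totals gave 11 calls (6 higher, 5 lower, median of all genes -0.06). No gene passed, the count being 0, with quantile normalization, without a filter on low values, with the main transcript only or with all 12 libraries in one fit, where 2314, 2694, 1976 and 180 genes had an unadjusted p under 0.05. A replicate block gave 25 calls, 15 higher and 10 lower. Chosen after seeing the data, library weights gave 27 calls, an adjusted p under 0.1 gave 23, the length trend removed gave 2, and the replicate block with crossed numbers gave 0 (2525 at an unadjusted p under 0.05). Leaving out 1 library at a time gave 0 to 2115 calls: 763 without 2-month replicate 1 and 2115 without 2-month replicate 2, fits whose spread comes from the closer 24-month pair, and 0 without either 24-month library, where it comes from the 2-month pair and the lone library is assumed to vary likewise. The interaction with epidermis gave 7 calls without a filter and 0 in each other setting. The interaction with activated bulge gave 1 call without a filter, 0 to 1 with 1 library left out (1 without activated 2-month replicate 2) and 0 otherwise. A replicate block within each population, chosen after seeing the data, gave 0 calls in both interactions (546 and 529 at an unadjusted p under 0.05).

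Of 151 named genes, 147 kept their sign in every setting run. The exceptions were Krt15 (-0.14 to 0.037 with 1 library left out, 1.8e-15 with quantile normalization), Lhx2 (-0.015 to 0.48), Krt1 (-0.024 to 1.34) and Krt10 (-0.29 to 1.20), the last 3 with 1 library left out. The causes were not tested. Gstt1 and Pcolce2 rest on 220 or more estimated fragments per library, Hba-a2 on 0 to 126.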
